A study of Homo sapiens with 24 samples.

Results

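Heat shock proteins and chaperones were followed as 65 genes read by 83 probes, out of 15102 genes and 17535 probes in the catalog part of the array, which covers annotated genes. They were chosen by gene symbol alone: heat shock protein genes beginning with HSPA, HSPB, HSPD, HSPE or HSPH, the numbered DNAJA, DNAJB and DNAJC genes, CCT and BAG genes, prefoldins, FKBP genes, the cyclophilins PPIA to PPIH and the heat shock factors. The 65 genes were 4 HSP70 genes, 4 small heat shock protein genes, 2 genes of HSP partners, the mitochondrial chaperonin partner HSPE1, 5 CCT genes, 28 J protein genes, 3 BAG genes, 9 FKBP genes, 7 cyclophilins and 2 heat shock factors. HSPA1A, HSPA1B, HSPA5, HSPA8, HSPH1, HSPB1, HSPD1, DNAJB1, DNAJB9, HSF2, HSP90B1 and the prefoldins with PFDN symbols were not analysed here.

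RNA of MRC5, a line of human lung fibroblasts, was measured on Agilent 1-color arrays, in control cells and upon oxidative stress (OS) by 0.2 mM hydrogen peroxide for 2 hr. Whole-cell (total) RNA was hybridized beside 3 pools of a polysome gradient: an untranslated pool (fractions 1 to 9, free RNA particles and single ribosomes), a low pool (fractions 10 to 14, light polysomes) and a high pool (fractions 15 to 23, heavy polysomes). That gave 8 groups with 3 arrays each, named replicates 1 to 3, on 3 slides that each held every group. The series text speaks of independent RNA preparations but not of separate cultures, so the p-values measure the spread between these samples. Control untranslated replicates 1 and 2 share a sample number in the labels, so that one may repeat the other, and results of that pool may rest on fewer than 3 independent samples. The SD of their log2 difference was 0.938, beside 0.995 for replicates 1 and 3 and 0.929 for 2 and 3.

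Signals are given as log2 of the processed intensity after quantile normalization, so that a difference of 1.00 is a 2-fold change, and values of 3 arrays are listed for replicates 1, 2 and 3. A gene in a pool was therefore read relative to the other mRNAs of that pool, and a lower amount of an mRNA could not be told apart from a gain of the others. A probe was measured in a group when the scanner software marked it well above background on each of the 3 arrays. Of the 65 genes, 44 were measured in all 8 groups, 16 in some and 5 (FKBP9, HSPB7, CCT8L2, DNAJB3 and DNAJA4) in none. The number measured was 53 in control and 57 in OS total RNA, 48 in either untranslated pool, 57 and 58 in the low pool and 55 and 57 in the high pool. Differences were tested with limma and passed where the p-value, adjusted over all tested probes by the method of Benjamini and Hochberg, was under 0.05. A direction given as 3 of 3 held within each of the 3 slides. Counts take 1 probe per gene, the brightest over the 24 arrays, and only genes measured in every group compared.

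A pair of arrays stood apart before any comparison. Replicate 3 of the OS low pool had 95.4% of the mRNA probes and 93.3% of the lncRNA probes well above background, against 43.6% to 67.8% and 14.5% to 36.3% on the other arrays. The SD of its difference to replicates 1 and 2 was 1.98 and 1.99, while replicates 1 and 2 differed from each other with an SD of 0.46. Since all arrays share 1 estimate of the spread, the count of members in each comparison is given with and without this array, while counts of families and lists are given with all 24 arrays. Replicate 1 of control total RNA had a dark patch, in which 419 probes read more than 3 log2 units under the mean of its other two replicates. That patch held 3 of the 83 probes, those of FKBP2, the second probe of BAG1 and the brighter probe of DNAJC21, and their total RNA values are given without that array.

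The cell line was checked against markers. Of 10 fibroblast markers, 5 were on the array (COL1A1, COL3A1, COL6A3, LUM and THY1) and were well above background on all 24 arrays. Of the epithelial markers, KRT5 was above background on 0, EPCAM on 8 and CLDN4 on 23 arrays. The leukocyte markers CD79A and PTPRC were above background on 24 and 23 arrays, and of the endothelial markers CDH5 was on 20, CLDN5 on 2 and VWF and KDR on 1 each. The fibroblast markers also moved with the pools: 3 of 5 were higher upon OS in the untranslated pool, 2 of 5 in the low pool and 2 of 5 in the high pool, and in total RNA limma called 0 of 5, with 1 lower at an unadjusted p under 0.05. In control cells 4 of 5 lay in the high pool, and upon OS 1 moved toward and 2 away from it. Their part in the results on chaperones was not tested. Of the other marker lists, limma called 0 genes with OS in any RNA, and at an unadjusted p under 0.05 1 epithelial gene was higher in total RNA and 1 in the high pool, and 1 leukocyte gene was higher in total RNA.

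Chaperones bind unfolded chains and keep them from aggregating. HSP70 proteins do so in cycles of ATP hydrolysis that J proteins start and that BAG proteins and other exchange factors end, while chaperonins enclose a chain in a chamber, small heat shock proteins hold it, and FKBPs and cyclophilins turn the peptide bonds before prolines. In stressed cells the heat shock factor HSF1 is released from chaperones, binds repeats of GAA and its complement at heat shock promoters and switches these genes on.

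The promoters of the members were therefore searched for that element as a description of the genes. Promoters from RefSeq (assembly GRCh38.p14, 250 bases before to 50 after each gene start) were matched for 52 of the 65 genes and searched on both strands for GAANNTTCNNGAA, which is 3 units in alternating orientation and holds the shorter GAANNTTC and TTCNNGAA. It was found in 172 of 35116 promoters (0.490%) and in 3 of the 68 promoters of the matched members, those of HSPA6, DNAJA1 and DNAJB6. Of 8 matched genes on a textbook list of HSF1 targets 5 had it: HSPA6 and DNAJA1 again, HSP90AA1, HSP90AB1 and CHORDC1. The matches are shown because HSF1 targets are followed through all comparisons, with the matched letters in capitals and the gene's own strand read 5′ to 3′.
HSPA6: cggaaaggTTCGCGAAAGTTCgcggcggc
DNAJA1: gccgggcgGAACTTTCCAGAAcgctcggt
DNAJB6: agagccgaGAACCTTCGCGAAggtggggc
HSP90AA1: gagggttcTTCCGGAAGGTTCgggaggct
HSP90AB1, far: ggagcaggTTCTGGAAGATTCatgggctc
HSP90AB1, near: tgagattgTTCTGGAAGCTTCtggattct
CHORDC1: ccgGAAAATTCGCGAAGGTTCCTGAAacg

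The printed stretch of HSPA6 is chr1:161524458-161524486 on the plus strand, with the match at -74 to -62 from the gene start. For DNAJA1 it is chr9:33025268-33025296 (plus), with the match inside the transcript at 4 to 16, and for DNAJB6 chr7:157336865-157336893 (plus), at -131 to -119. HSP90AA1 has its match at -88 to -76 in chr14:102087112-102087140 (minus). HSP90AB1 has a far match at -165 to -153 in chr6:44247770-44247798 and a near match at -112 to -100 in chr6:44247823-44247851, both on the plus strand. CHORDC1 carries 3 overlapping matches from -60 to -38 in chr11:90223084-90223112 (minus). The shorter GAANNTTC was in 6.77% of all promoters and in 6 of the 68 promoters of the 52 matched members, that of HSPB8 among them. TTCNNGAA was in 7.74% of all promoters and in 7 of these 68, those of CCT4 and HSPA9 among them. A match is a description, not a site or a cause.

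On the array's own build, GRCh37, the probe of HSPB8 spans chr12:119617464-119624868 (plus strand) and crosses an intron, that of DNAJB2 lies at chr2:220151526-220151585 (plus) and that of HSPA9 at chr5:137891504-137891563 (minus). HSPE1 is read at chr2:198367803-198367942 (plus), CCT4 at chr2:62096576-62096635 (minus) and PPIH at chr1:43142350-43142409 (plus). By accession 75 of the 83 probes, of 62 genes, were matched to a RefSeq gene, and none of them to one of another symbol. DNAJA1P5 is a pseudogene of DNAJA1 and DNAJC27-AS1 an antisense noncoding RNA that the symbol rule takes in.

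The first comparison asks how OS changed the level of these mRNAs in the whole cell. Of the members, 2 were up-regulated in total RNA upon OS, the small heat shock protein HSPB8 and the J protein DNAJB2, and HSPA6, the stress-inducible HSP70, read higher on all 3 OS arrays without passing the test. Of the 53 members measured on both sides 2 were higher and limma called 0 lower (8 and 2 at an unadjusted p under 0.05), beside 1.98% higher and 2.53% lower of 8285 catalog genes. At an unadjusted p under 0.05, 417 of these catalog genes were higher and 645 lower. The median difference was 0.09 over the members and -0.02 over all catalog genes. By adjusted calls, at 2 of 53, the members' share lay near the background.

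HSPA6 makes an HSP70 that unstressed cells hold at very low levels, and its probe also lists the transcript of HSPA7. In total RNA it read 6.97, 6.62 and 6.48 in control cells and 7.31, 7.02 and 7.97 upon OS. All 3 OS arrays lay above all 3 control arrays, but replicate 3 was far above the other two. The difference was 0.74 (SE 0.34) with an adjusted p of 0.275, higher in 3 of 3, and within the slides it was 0.33, 0.40 and 1.50. HSPA9, the HSP70 of the mitochondrial matrix, read 11.40, 11.29 and 11.30 in control and 11.60, 11.51 and 11.36 upon OS. Its groups overlapped, and the difference of 0.16 did not pass (adjusted p = 0.845). HSPA13 and HSPA14 differed by 0.03 and 0.14, neither of which passed.

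HSPB8 is a small heat shock protein that works with BAG3 in delivering aggregated chains to autophagy. Its signal in total RNA was 9.92, 10.08 and 10.16 in control cells and 10.88, 10.75 and 10.74 upon OS. The groups were clearly apart, with every OS array above the highest control array. HSPB8 rose by 0.73 (SE 0.22, adjusted p = 0.0456, higher in 3 of 3), and by 0.96, 0.67 and 0.57 within the slides. BAG3, its partner and an HSP70 exchange factor, read 11.17, 11.28 and 11.44 in control and 11.91, 11.59 and 11.97 upon OS. Its groups did not overlap either, with a difference of 0.53 (SE 0.17) that missed the threshold (adjusted p = 0.0642) and passed without replicate 3 of the OS low pool (adjusted p = 0.0238). HSPB2, a small heat shock protein best known from muscle, differed by 0.09.

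DNAJB2 is a J protein that passes clients of HSP70 to the ubiquitin system. It read 13.44, 13.31 and 13.33 in control total RNA and 13.83, 13.78 and 13.77 upon OS. All OS arrays lay above all control arrays and the spread within each group was small. DNAJB2 rose by 0.43 (SE 0.11, adjusted p = 0.0214, higher in 3 of 3), by 0.39, 0.47 and 0.44 within the slides. Its second, dimmer probe differed by 0.16 and did not pass, and with the mean of both probes the difference was 0.30 (adjusted p = 0.703). DNAJA1, a cytosolic partner of HSP70, read 13.39, 13.23 and 13.50 in control and 13.77, 13.60 and 13.83 upon OS. These groups did not overlap, at a difference of 0.36 (adjusted p = 0.269). A second DNAJC16 probe, above background on 0 of 3 OS arrays, read at least 1.87-fold lower upon OS (adjusted p = 0.00273). That probe entered the test through the control side alone. Its p-value rests on OS signals not above background and is a description only. The brightest DNAJC16 probe differed by -0.38 (adjusted p = 0.89).

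The other families gave small values in total RNA. HSPE1, the lid of the mitochondrial chaperonin, read 15.48, 15.40 and 15.46 in control and 15.61, 15.53 and 15.57 upon OS, without overlap, at a difference of 0.13 (adjusted p = 0.842). The 4 CCT genes measured on both sides lay between 0.02 and 0.31 and the 7 cyclophilins between -0.41 for PPIG and 0.35 for PPIF. HSF1 itself read 14.77, 14.85 and 14.87 in control and 14.63, 14.63 and 14.78 upon OS, with overlapping groups and a difference of -0.15 (adjusted p = 0.652). FKBP2, a prolyl isomerase of the endoplasmic reticulum (ER), read 4.87 inside the dark patch and 15.90 and 15.88 on the other control arrays, against 15.84, 15.95 and 15.85 upon OS. Without the patched array its difference was -0.01 (adjusted p = 1). DNAJC21 likewise differed by -0.07 without it.

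Without replicate 3 of the OS low pool the count in total RNA was 4 higher and 2 lower of 53, beside 4.27% and 7.65% of all catalog genes. Added were BAG3, DNAJB4 (0.36, adjusted p = 0.039), PPIG (-0.41, adjusted p = 0.0172) and DNAJB14 (-0.29, adjusted p = 0.0359). With slide as a block the count was 2 higher and 0 lower. With background correction by normexp it was 3 higher and 1 lower, and with replicate as a block 2 higher and 1 lower, where HSPB8 missed (adjusted p = 0.058) and BAG3 (adjusted p = 0.0444) and PPIG (adjusted p = 0.0387) passed. Only 1 member was higher when all probes were normalized together, where HSPB8 missed (adjusted p = 0.0656), and 1 with the mean of a gene's probes. With 75th percentile scaling limma called 0 in either direction (0 and 0 at an unadjusted p under 0.05). Without any 1 of control total replicates 2 or 3 or OS total replicates 1 or 3 it fell to 0 higher.

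**Figure D1:**
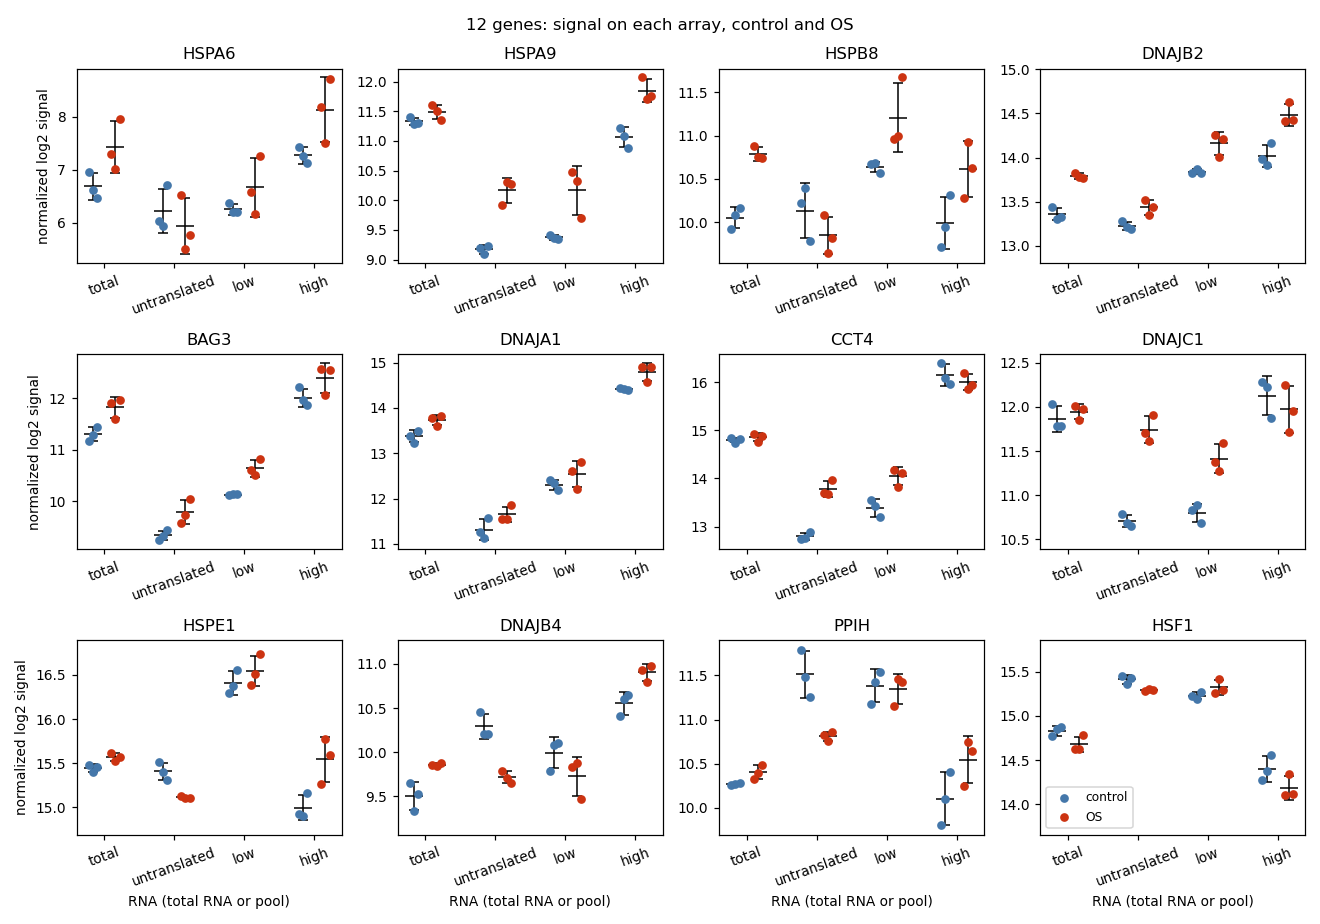
Normalized log2 signal (vertical axis) of 12 genes in total RNA and the 3 pools (horizontal axis), with a point for each array and bars for the mean ± SD of 3 arrays in control cells and upon OS. HSPB8 and DNAJB2 lie higher upon OS in total RNA without overlap, and CCT4 lies far higher in the high pool than in the untranslated pool in either condition.

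The place of an mRNA in the gradient of control cells was read as the high pool less the untranslated pool. In control cells most chaperone mRNAs lay toward heavy polysomes: 27 of the 48 members measured on both sides were higher in the high pool and 11 in the untranslated pool, beside 39.1% and 38.5% of 6490 catalog genes. The median was 0.67 over members and 0.04 over all catalog genes, with quartiles of -1.42 and 1.19. CCT4 and CCT8, DNAJA1 and DNAJA2, HSPA9, HSPA13 and HSPA14 and BAG3 lay toward the high pool, and FKBP1A, FKBP1B, HSPB2 and both heat shock factors toward the untranslated pool. Without replicate 3 of the OS low pool the count was 29 and 11, beside 43.1% and 42.1%, and with slide as a block 27 and 11.

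This scale depends on the normalization. The all-gene median moved from 0.04 to 0.73 when all probes were normalized together, to 1.58 with 75th percentile scaling and to 0.64 with normexp, and the member median moved with it to 1.28, 2.23 and 1.15. The members' split of 27 and 11 became 34 and 5 (51.1% and 25.9% of all catalog genes), 34 and 1 (57.3% and 11.3%), and 35 and 8 (53.5% and 28.4%). Under 75th percentile scaling the estimates of BAG1 (0.57), FKBP4 (0.92) and PPIH (0.34) turned positive. Those of HSPE1, HSPB8, FKBP8 and DNAJC10 did so under each of these scalings. With 75th percentile scaling the medians of the small heat shock proteins and of the FKBP genes changed sign. Each position is therefore to be read against the median mRNA, which lay at 0.04.

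CCT4 and CCT8 encode subunits of the cytosolic chaperonin that folds actin and tubulin. CCT4 read 12.74, 12.77 and 12.88 in the untranslated and 16.39, 16.08 and 15.95 in the high pool of control cells. CCT8 read 12.53, 12.47 and 12.69 and then 15.88, 15.51 and 15.22. In both genes every high pool array lay far above every untranslated array. CCT4 was higher in the high pool by 3.34 (SE 0.15, adjusted p = 1.11e-12, in 3 of 3) and CCT8 by 2.97 (adjusted p = 7.76e-12, in 3 of 3), and within the slides CCT4 differed by 3.19 to 3.62. Another subunit, CCT5, was not above background on any untranslated array of control cells and lies at least 2.73-fold higher in the high pool (adjusted p = 4.19e-06). CCT6B, not above background on those arrays either, was at least 1.68-fold higher without passing (adjusted p = 0.107). For these lower limits the brighter side was compared, on each array of the dimmer side, with the dimmest signal still called above background, or with the probe's own signal where that was higher. The p-value beside such a limit is that of the fitted difference, which includes signals not above background, and not of the limit itself. Genes with such a limit entered the test through the brighter side alone. Their p-values are therefore a description, and no conclusion on their place is drawn from them.

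DNAJA1 read 11.26, 11.12 and 11.57 in the untranslated and 14.45, 14.41 and 14.39 in the high pool. The difference (SE 0.16, adjusted p = 1.02e-11) held in 3 of 3 and was 2.84 to 3.33 within the slides. The other class A genes measured were DNAJA2, another cytosolic partner of HSP70, at 2.10 and the pseudogene DNAJA1P5 at 2.43 (adjusted p = 8.71e-07). All 3 class A genes measured on both sides were thus higher in the high pool, as were 4 of 6 class B genes, with a median of 1.00, and 5 of 10 class C genes, with a median of 0.32. DNAJB11, a J protein of the ER lumen, lay at 1.94 and DNAJC1 of the ER membrane at 1.42. DNAJC24, which acts in the diphthamide modification of a translation factor, lay at -1.61 (adjusted p = 8.84e-06) and DNAJC27 at -1.27. Both missed with all probes normalized together, DNAJC24 at -0.78 (adjusted p = 0.061) and DNAJC27 at -0.39 (adjusted p = 0.322), and with 75th percentile scaling, at -0.04 (adjusted p = 0.951) and -0.20 (adjusted p = 0.644). Of genes not measured in the untranslated pool of control cells, DNAJC6, which strips clathrin from vesicles, was at least 1.14-fold higher in the high pool (adjusted p = 3.22e-08, 0 of 3 dim arrays above background) and DNAJC16 at least 2.69-fold (adjusted p = 0.0162, 2 of 3). Both entered the test through the high pool alone, and the p-value of DNAJC6 rests on untranslated signals not above background.

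The 3 HSP70 genes measured on both sides also lay toward heavy polysomes. HSPA9 read 9.20, 9.09 and 9.22 in the untranslated and 11.22, 11.08 and 10.88 in the high pool. Each high pool array was well above the untranslated arrays, by 1.89 on average (SE 0.18, adjusted p = 2.08e-08, 3 of 3). HSPA13, an HSP70 relative of the ER, lay at 1.91 and HSPA14, which works at the ribosome, at 1.33. HSPA6 was above background on 1 of 3 untranslated arrays and was at least 1.42-fold higher in the high pool (adjusted p = 0.0123). HSPA6 entered the test through the high pool alone and is not counted with these genes. BAG3 read 9.25, 9.32 and 9.43 and then 12.21, 11.96 and 11.87, without overlap, a difference of 2.68 (SE 0.17, adjusted p = 8.05e-11, 3 of 3). BAG1, an exchange factor linked to the proteasome, lay at -0.76, and by its second probe, without the patched array, it decreased by 1.00 from the untranslated to the high pool (adjusted p = 1.2e-05). The HSP partners HSPBAP1 and HSPBP1 lay at 1.38 and 1.37.

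Toward the untranslated pool lay FKBP1B, FKBP1A and HSPB2. FKBP1B, a regulator of ryanodine receptors, read 12.54, 12.67 and 12.64 in the untranslated and 9.60, 9.73 and 9.67 in the high pool. FKBP1A, the protein that binds rapamycin, read 13.64, 13.56 and 13.78 and then 11.46, 11.11 and 11.46. HSPB2 read 12.46, 12.44 and 12.22 and then 9.91, 10.20 and 10.40. In these 3 genes no high pool array reached an untranslated array. The differences were -2.95 (SE 0.14, adjusted p = 2.87e-12) for FKBP1B, -2.31 (SE 0.12, adjusted p = 1.2e-11) for FKBP1A and -2.21 (SE 0.16, adjusted p = 8.15e-10) for HSPB2, lower in 3 of 3 each. With 75th percentile scaling FKBP1B passed at -1.33 (adjusted p = 0.0315), while FKBP1A at -0.87 (adjusted p = 0.137) and HSPB2 at -0.52 (adjusted p = 0.412) missed. HSPB8 lay at -0.14, which did not pass (adjusted p = 0.592). Under the other scalings HSPB8 was positive and passed, at 0.56 with all probes normalized together (adjusted p = 0.0333), 1.62 with 75th percentile scaling (adjusted p = 0.0029) and 0.49 with normexp (adjusted p = 0.0277), beside all-gene medians of 0.73, 1.58 and 0.64.

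HSF1, the main switch of the heat shock genes, read 15.45, 15.36 and 15.43 in the untranslated and 14.27, 14.38 and 14.56 in the high pool, without overlap. It lay at -1.01 (SE 0.11, adjusted p = 2.63e-07, 3 of 3), and at -1.09 to -0.88 within the slides. HSF4, a heat shock factor best known from the lens, read 7.72, 8.86 and 8.48 and then 6.66, 6.77 and 6.56, and lay at -1.69 (adjusted p = 0.000548). With 75th percentile scaling neither factor passed, HSF1 at -0.40 (adjusted p = 0.517) and HSF4 at -0.53 (adjusted p = 0.17), and HSF4 missed at -0.80 with all probes normalized together (adjusted p = 0.0966). HSPE1 read 15.51, 15.40 and 15.31 and then 14.93, 14.90 and 15.16. It lay at -0.41 (SE 0.14, adjusted p = 0.0145, lower in 3 of 3), and at 0.11 when all probes were normalized together or with normexp and 0.17 with 75th percentile scaling, each below the all-gene median of that scaling.

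Among FKBPs and cyclophilins the positions were mixed. Of the 7 FKBP genes measured on both sides 1 was higher in the high pool and 3 in the untranslated pool, and of the 7 cyclophilins 6 and 1. The FKBP split became 2 and 2 with all probes normalized together and 3 and 1 with 75th percentile scaling. The FKBP median moved from -0.11 to 0.48 and 1.61, beside all-gene medians of 0.73 and 1.58. PPIB, the cyclophilin of the ER, lay at 2.25 (adjusted p = 4.4e-10), PPIF, the mitochondrial cyclophilin of the permeability pore, at 1.84, and PPID, which binds HSP90, at 1.42. PPIH, a cyclophilin of the spliceosome, lay at -1.40 (adjusted p = 1.21e-06). FKBP2 lay at 1.23 (SE 1.74, adjusted p = 0.554), and at the same 1.23 with an SE of 0.14 without the patched array, which is of total RNA (adjusted p = 5.37e-07). FKBP5, a cochaperone of HSP90 at steroid receptors, was above background on 0 of 3 untranslated arrays and lay at least 1.61-fold higher in the high pool (adjusted p = 4.3e-05). It too entered the test through the high pool alone.

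Probes of the same gene did not always have the same place in the gradient. Of 15 genes with several probes, PPIA, the abundant cytosolic cyclophilin, had opposite calls, at 0.44 and -0.50. FKBP4, a cochaperone of HSP90, lay at -0.78 by its brightest probe. Another FKBP4 probe, above background on 2 of 3 untranslated arrays, read at least 4.01-fold higher in the high pool (adjusted p = 9.99e-06). That probe entered the test through the high pool alone. Its p-value is a description, and no conclusion on its place is drawn from it. The brightest FKBP4 probe missed with all probes normalized together (-0.25, adjusted p = 0.248) and with normexp (-0.27, adjusted p = 0.189). In 5 more genes only some probes passed, 1 of them BAG1, whose second probe passed without the patched array. Among the others, DNAJB6, which holds back aggregates, lay at 0.43 by its brightest probe and at 1.56 by the other, which passed, and DNAJC21 at 0.00 and 1.13, which passed.

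**Figure D2:**
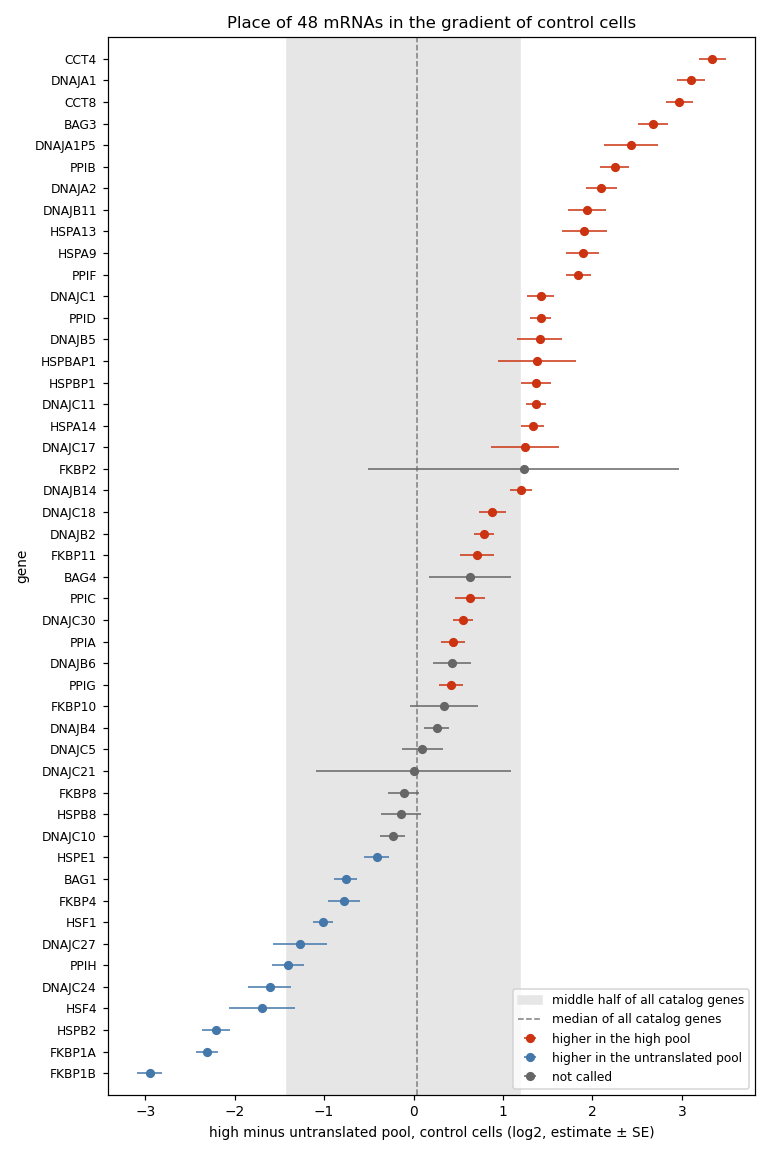
High less untranslated pool in control cells (horizontal axis, log2, estimate ± SE) for the 48 members measured on both sides (vertical axis), with the range between the quartiles of all catalog genes as a grey band and their median as a dashed line. CCT4 lies highest at 3.34 and FKBP1B lowest at -2.95, while under 75th percentile scaling BAG1, FKBP4, PPIH, HSPE1, HSPB8, FKBP8 and DNAJC10 turn from negative to positive and PPIA to negative.

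The pools of the gradient were next compared between OS and control. In the untranslated pool 8 of 46 members measured on both sides were higher upon OS and 6 lower, beside 13.9% and 13.9% of 6387 catalog genes. The higher ones were the ER genes DNAJC1, DNAJB11, HSPA13 and PPIB, the mitochondrial HSPA9, the chaperonin subunits CCT4 and CCT8, and DNAJA2. The lower ones were the J proteins DNAJB14, DNAJC24, DNAJB6 and DNAJB4 and the nuclear cyclophilins PPIH and PPIG. The member median was -0.02, beside -0.06 over all catalog genes, and the shares of 17.4% and 13.0% lay near the background. Without replicate 3 of the OS low pool the count was 12 and 7, beside 20.1% and 24.5%.

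DNAJC1 read 10.79, 10.69 and 10.65 in the control and 11.70, 11.61 and 11.91 in the OS untranslated pool. DNAJB11 read 10.90, 10.66 and 10.34 and then 11.63, 11.50 and 11.86. HSPA9 read 9.20, 9.09 and 9.22 and then 9.92, 10.31 and 10.27. All OS arrays of these 3 genes lay above all control arrays. The rises were 1.03 (SE 0.15, adjusted p = 0.00013) for DNAJC1, 1.03 (SE 0.21, adjusted p = 0.00154) for DNAJB11 and 1.00 (SE 0.18, adjusted p = 0.000519) for HSPA9, in 3 of 3 each. CCT4 rose from 12.74, 12.77 and 12.88 to 13.70, 13.68 and 13.96, by 0.98 (SE 0.15, adjusted p = 0.000137), and CCT8 rose by 0.58 (adjusted p = 0.012). HSPA13 rose by 0.90 (adjusted p = 0.0167), PPIB by 0.71 (adjusted p = 0.00361) and DNAJA2 by 0.55 (adjusted p = 0.0314), each higher in 3 of 3.

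DNAJB14, a J protein of the ER membrane, read 10.24, 9.98 and 9.96 in the control and 9.35, 9.25 and 9.30 in the OS untranslated pool. DNAJB4, a partner of HSP70, read 10.46, 10.21 and 10.21 and then 9.79, 9.71 and 9.65. PPIH read 11.79, 11.48 and 11.26 and then 10.82, 10.76 and 10.86. Every OS array of the 3 genes lay below every control array. DNAJB14 fell by 0.76 (SE 0.12, adjusted p = 0.000222), DNAJB4 fell by 0.58 (SE 0.14, adjusted p = 0.00696) and PPIH fell by 0.69 (SE 0.18, adjusted p = 0.00887). DNAJC24 fell by 0.73, DNAJB6 fell by 0.69 by its brightest probe, while its other probe differed by 0.46 and did not pass, and PPIG fell by 0.44. DNAJC27 was measured in control cells and above background on 2 of 3 OS arrays, and read at least 2.43-fold lower upon OS (adjusted p = 0.00148). It entered this test through the control side alone and is not counted with these genes. Its p-value is that of the fitted difference, which includes a signal not above background, and is a description only.

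With slide as a block the untranslated count was 8 and 6. It was 6 and 5 with all probes normalized together and 7 and 4 with normexp. In both HSPA13 (adjusted p = 0.0736 and 0.0984), DNAJA2 (0.0778 and 0.147) and DNAJC24 (0.173 and 0.131) missed, as did PPIG with normexp (0.0653). Their estimates there were 0.98 and 0.78, 0.61 and 0.51, and -0.76 and -0.60, and for PPIG -0.36. When control untranslated replicates 1 and 2 were averaged, it was 8 and 3, as DNAJB6 (adjusted p = 0.108), DNAJC24 (adjusted p = 0.0946) and PPIG (adjusted p = 0.074) missed. With the mean of a gene's probes DNAJB6 (-0.12, adjusted p = 0.783) and PPIH (-0.18, adjusted p = 0.786) missed, and with 75th percentile scaling limma called 0 in either direction (3 and 0 at an unadjusted p under 0.05). All these estimates kept their signs under 75th percentile scaling, with CCT4 at 1.15, DNAJB11 at 1.07, HSPA9 at 1.01 and DNAJB14 at -0.70. That scaling without replicate 3 of the OS low pool, an alternative chosen after seeing the data, gave 7 and 2.

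In the low pool 4 of 56 members were higher upon OS and 3 lower, beside 4.15% and 5.45% of 8722 catalog genes. The higher ones were HSPA9, CCT8, CCT4 and DNAJC1, all of which were also higher in the untranslated pool, and the lower ones FKBP5, DNAJB14 and DNAJC18. The member median was -0.05, and that of all catalog genes -0.18, so that the members' shares of 7.14% and 5.36% lay near the background. Without replicate 3, which belongs to this comparison, the count was 4 and 2, beside 5.55% and 5.12%, and 6 of the 7 genes were called in both.

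HSPA9 read 9.42, 9.37 and 9.34 in the control and 10.47, 10.33 and 9.70 in the OS low pool. CCT8 read 12.62, 12.60 and 12.31 and then 13.34, 13.23 and 13.29. CCT4 read 13.55, 13.43 and 13.19 and then 14.18, 13.83 and 14.12. Groups did not overlap in these genes, although OS replicate 3 of HSPA9 came near its controls. HSPA9 rose by 0.79 (SE 0.18, adjusted p = 0.00888, 3 of 3), and by 1.05 without that array. HSPA9 missed at 0.59 with all probes normalized together (adjusted p = 0.104) and at 0.55 with normexp (adjusted p = 0.0812). CCT8 rose by 0.78 (adjusted p = 0.0043), CCT4 by 0.65 (adjusted p = 0.0111) and DNAJC1 by 0.61 (adjusted p = 0.0213), each in 3 of 3.

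DNAJB14 read 10.80, 10.80 and 10.75 in the control and 10.28, 10.13 and 9.87 in the OS low pool. It was lower on every OS array and fell by 0.69 (SE 0.12, adjusted p = 0.00156), with -0.58 without replicate 3. FKBP5 read 6.49, 6.54 and 6.57 and then 5.85, 5.81 and 3.23, the last on the array that stands apart. FKBP5 fell by 1.57 (adjusted p = 0.0418), with -0.73 (adjusted p = 0.0389) without that array. DNAJC18 fell by 0.52 (adjusted p = 0.0404), and at -0.38 did not pass without that array (adjusted p = 0.0944). With slide as a block 4 members were higher and 1 lower, as FKBP5 (adjusted p = 0.0521) and DNAJC18 (adjusted p = 0.0548) missed. The low pool depends on scaling: the all-gene median moved from -0.18 to -0.35 with all probes normalized together and to -1.07 with 75th percentile scaling, under which CCT4 (-0.63), CCT8 (-0.54), DNAJC1 (-0.60) and HSPA9 (-0.23) turned negative. Without replicate 3, chosen after seeing the data, that scaling left them positive, at 0.32, 0.47, 0.26 and 0.76, with an all-gene median of -0.28, and of these 4 HSPA9 passed (adjusted p = 0.0187). The split of 4 and 3 became 3 and 5 with normexp and 0 and 4 with 75th percentile scaling (0 and 30 at an unadjusted p under 0.05). The all-gene median was then -0.23 with normexp and -1.07 with 75th percentile scaling. Without the share of all catalog genes called at these scalings, the counts are no result particular to the members.

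In the high pool 3 of 55 members were higher upon OS and limma called 0 lower (11 and 1 at an unadjusted p under 0.05), beside 2.95% and 2.44% of 8344 catalog genes (743 and 644 genes at an unadjusted p under 0.05). The members called were HSPA9, HSPE1 and DNAJB2, of which DNAJB2 was also higher in total RNA. The member median was 0.05, beside -0.02 over all catalog genes, and by adjusted calls the members' share of 5.45% lay near the background. Without replicate 3 of the OS low pool 5 were higher and 0 lower, beside 6.45% and 6.52%.

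HSPA9 read 11.22, 11.08 and 10.88 in the control and 12.07, 11.71 and 11.76 in the OS high pool. HSPE1 read 14.93, 14.90 and 15.16 and then 15.27, 15.77 and 15.59. DNAJB2 read 13.98, 13.92 and 14.16 and then 14.41, 14.63 and 14.42. In each of the 3 genes all OS arrays lay above all control arrays, most narrowly in HSPE1. HSPA9 rose by 0.78 (SE 0.18, adjusted p = 0.00988), HSPE1 by 0.54 (SE 0.14, adjusted p = 0.024) and DNAJB2 by 0.47 (SE 0.11, adjusted p = 0.0177), in 3 of 3. Within the slides HSPA9 differed by 0.62 to 0.88, HSPE1 by 0.34 to 0.87 and DNAJB2 by 0.26 to 0.71, and with slide as a block the count was 3 and 0. The second, dimmer probe of DNAJB2 differed by 0.28 and did not pass, and with the mean of both probes DNAJB2 missed at 0.37 (adjusted p = 0.668). The count was 2 higher with all probes normalized together and with normexp, where HSPA9 missed at 0.71 (adjusted p = 0.087) and at 0.63 (adjusted p = 0.0867).

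HSPA6 read 7.44, 7.26 and 7.13 in the control and 8.19, 7.51 and 8.72 in the OS high pool. All OS arrays were higher, with a wide spread, at a difference of 0.86 (SE 0.34) that did not pass (adjusted p = 0.218). HSPB8 read 9.72, 9.95 and 10.31 and then 10.28, 10.93 and 10.63, which overlap, a difference of 0.62 (adjusted p = 0.133). PPIA differed by 0.40 by its brightest probe (adjusted p = 0.111) and by 0.60 by another, which passed (adjusted p = 0.0328). BAG3 read 12.21, 11.96 and 11.87 and then 12.57, 12.06 and 12.55, at a difference of 0.38 (adjusted p = 0.292). With 75th percentile scaling limma called 0 members in either direction in this pool (1 and 0 at an unadjusted p under 0.05).

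**Figure D3:**
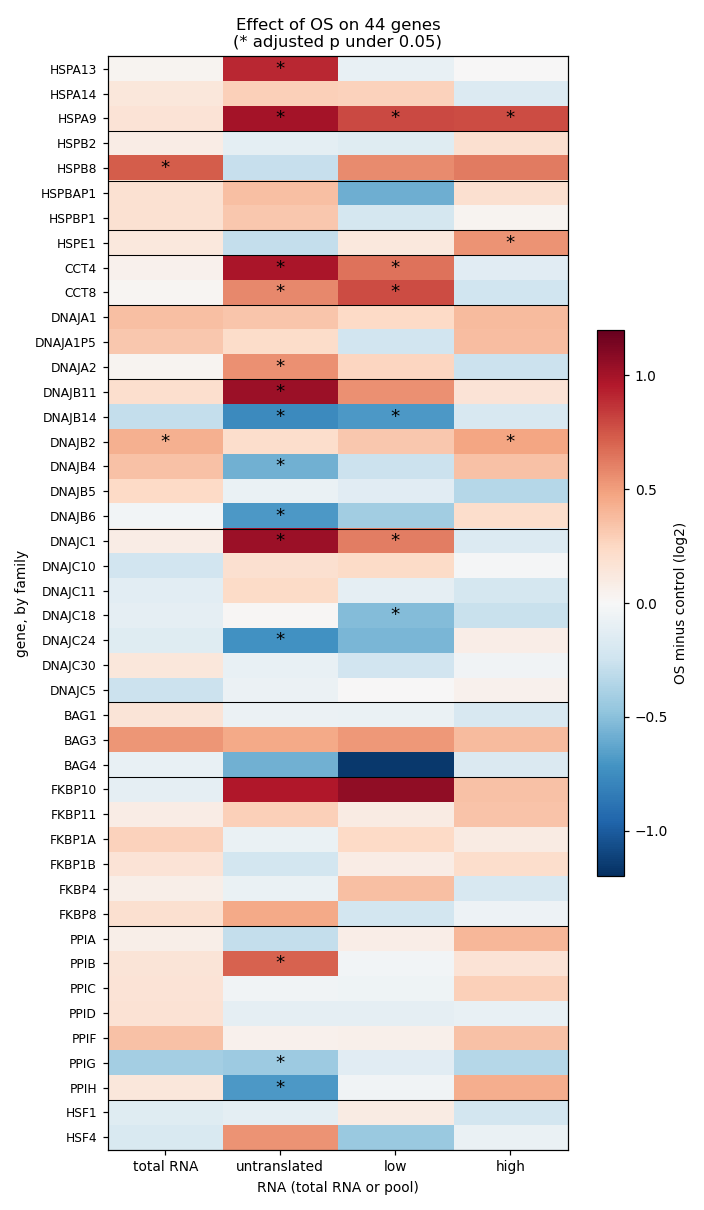
OS less control (color, log2) in total RNA and the 3 pools (horizontal axis) for the 44 members measured in all 8 groups, ordered by family (vertical axis), with a star where the adjusted p was under 0.05. HSPA9 is starred in all 3 pools, at 1.00, 0.79 and 0.78, and not in total RNA at 0.16, and with 75th percentile scaling its low pool value turns to -0.23. Its stars in the low and the high pool are lost with all probes normalized together and with normexp. With 75th percentile scaling all 3 are lost, at an untranslated value of 1.01 and a high pool value of 0.66.

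Whether an mRNA changed its place in the gradient was tested as the effect of OS in the high pool less its effect in the untranslated pool, called the shift. By this test 5 of 46 members had a positive shift and 4 a negative one, beside 9.69% and 9.70% of 6307 catalog genes. PPIH, DNAJB4, HSPE1, PPIA and DNAJB14 moved toward heavy polysomes, and DNAJC1, CCT4, CCT8 and DNAJA2 away from them, relative to the other mRNAs. The member median was -0.03, beside 0.06 over all catalog genes, and the shares of 10.9% and 8.70% lay near the background. Without replicate 3 of the OS low pool the count was 8 and 7, beside 20.3% and 16.3%.

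Of those that moved away, DNAJC1 read 12.28, 12.23 and 11.87 in the control and 12.25, 11.72 and 11.95 in the OS high pool, which overlap, while its untranslated values had risen without overlap. Its shift was -1.19 (SE 0.22, adjusted p = 0.0025), with -1.48 to -1.04 within the slides and -0.91 by its second probe (adjusted p = 0.0159). CCT4 read 16.39, 16.08 and 15.95 in the control and 16.19, 15.86 and 15.94 in the OS high pool. Those groups overlap, and the shift of -1.13 (SE 0.21, adjusted p = 0.00269, in 3 of 3 slides) combined an untranslated effect of 0.98 with a high pool effect of -0.14. CCT8 shifted by -0.83 (adjusted p = 0.0238), from effects of 0.58 and -0.24, and DNAJA2 by -0.81 (adjusted p = 0.0457), from 0.55 and -0.26.

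Among members that moved toward heavy polysomes, PPIH read 9.81, 10.10 and 10.41 in the control and 10.25, 10.75 and 10.64 in the OS high pool. These values overlap, but each was higher within its slide while the untranslated values had fallen. The shift of PPIH was 1.14 (SE 0.25, adjusted p = 0.00791), at 1.10, 1.14 and 1.16 within the slides, and the mean over its probes, of which the other two were not measured in these pools, gave 0.53 (adjusted p = 0.539). DNAJB4 read 10.41, 10.60 and 10.65 and then 10.93, 10.80 and 10.98 in the high pool, without overlap, and shifted by 0.93 (SE 0.20, adjusted p = 0.00723, 3 of 3 slides) from effects of -0.58 and 0.35. HSPE1 read 15.51, 15.40 and 15.31 in the control and 15.13, 15.11 and 15.11 in the OS untranslated pool, also without overlap. HSPE1 shifted by 0.83 (SE 0.20, adjusted p = 0.0122, 0.61 to 1.07 within the slides) from effects of -0.29 and 0.54.

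PPIA read 16.89, 17.00 and 16.61 in the control and 16.66, 16.44 and 16.53 in the OS untranslated pool, which overlap, and 17.06, 17.28 and 17.49 and then 17.52, 17.71 and 17.78 in the high pool, which do not. Its shift was 0.68 (SE 0.19, adjusted p = 0.0291) by its brightest probe and 0.78 (adjusted p = 0.0388) by another. DNAJB14 shifted by 0.57 (SE 0.17, adjusted p = 0.045), as its effect was -0.76 in the untranslated and -0.19 in the high pool. HSPA9, higher upon OS in both pools, had a shift of -0.21 (adjusted p = 0.764), BAG3 of -0.07 and HSF1 of -0.10. For HSPA6 no shift is given, since its untranslated signal was above background on 1 control and 0 OS arrays.

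In the shift, too, probes of a gene differed. DNAJC21 had a shift of -0.15 by its brightest probe and of -1.11 by a dimmer one, which passed (adjusted p = 0.00723), and of the 3 probes of FKBP1A, at 0.18 to 0.82, 1 passed. FKBP2 had a shift of 0.66 that passed narrowly without the patched array (SE 0.20, adjusted p = 0.0496), and the count was then 6 and 3, as DNAJA2 missed (adjusted p = 0.0581). Of the 11 members not measured in all 4 groups but tested, limma called 0 (2 toward the high pool and 0 away at an unadjusted p under 0.05).

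With slide as a block 4 members had a positive and 4 a negative shift, as DNAJB14 (adjusted p = 0.0512) and DNAJA2 (adjusted p = 0.0603) missed the threshold and DNAJB11 (-0.87, adjusted p = 0.0477) passed it. With control untranslated replicates 1 and 2 averaged it was 3 and 3, as PPIA (0.63, adjusted p = 0.0651), DNAJB14 (0.55, adjusted p = 0.0708) and CCT8 (-0.79, adjusted p = 0.0506) missed. When the shift was taken to the low pool instead, limma called 0 members in either direction (3 toward and 6 away at an unadjusted p under 0.05). Under 75th percentile scaling it also called 0 (0 and 0 unadjusted), although the estimates of all 9 kept their signs, with PPIH at 1.08, CCT4 at -1.34, CCT8 at -0.88 and DNAJA2 at -0.90. That scaling without replicate 3 of the OS low pool, chosen after seeing the data, gave 0 toward and 2 away (3 and 10 unadjusted).

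**Figure D4:**
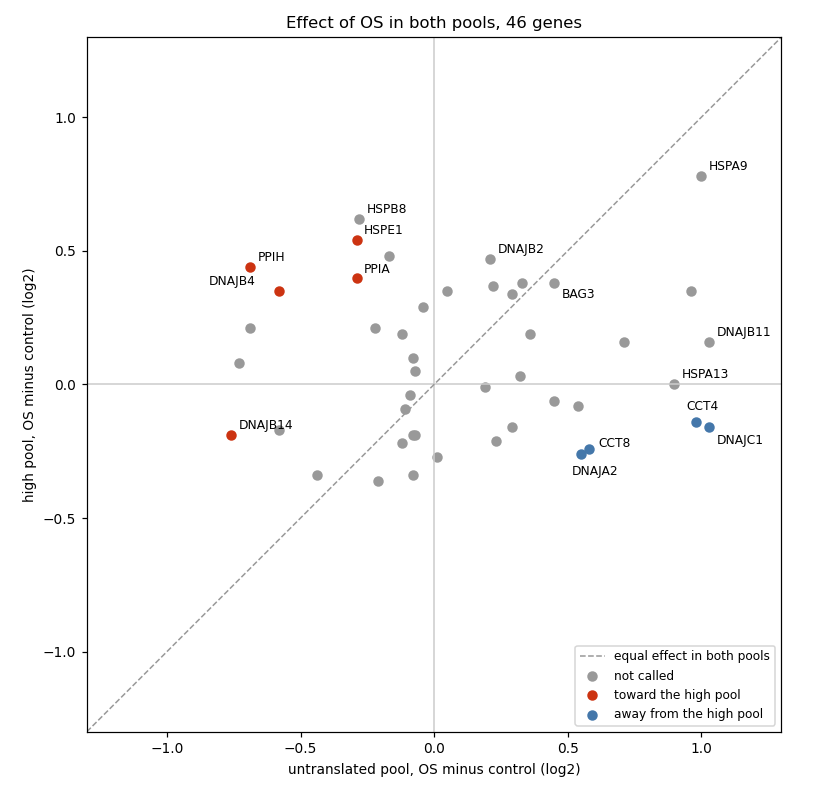
Effect of OS in the untranslated pool (horizontal axis, log2) and in the high pool (vertical axis, log2) for the 46 members measured in all 4 groups, with the members that passed the test of the shift colored and named. PPIH lies at -0.69 and 0.44 and CCT4 at 0.98 and -0.14, on opposite sides of the line of equal effects.

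**Figure D5:**
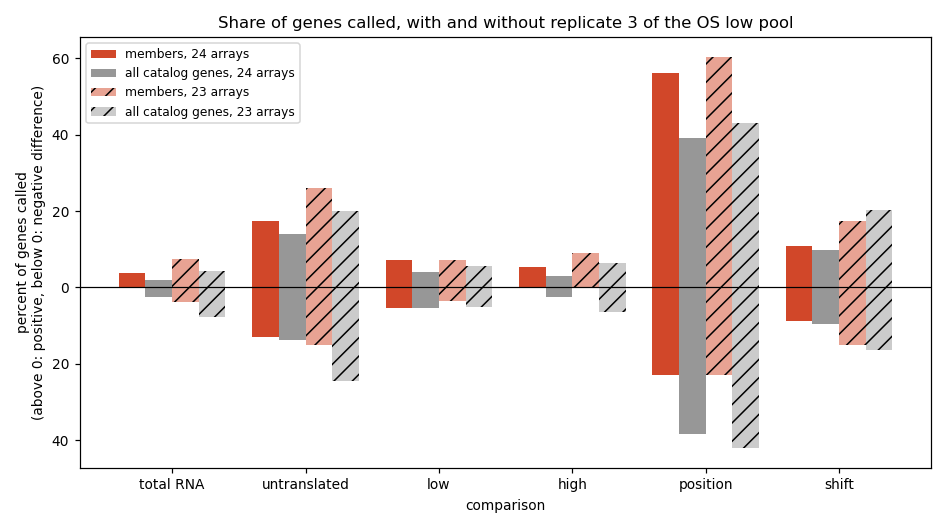
Percent of genes called in each of the 6 comparisons (vertical axis, positive differences above 0 and negative below) for members and for all catalog genes, on all 24 arrays and without replicate 3 of the OS low pool. In the gradient of control cells 56.2% of members and 39.1% of catalog genes are higher in the high pool, and in the comparisons with OS the bars of members and catalog genes lie closer together.

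Related chaperones were read from lists by function, which share members with the 65 genes. Their counts are to be read beside the shares of all catalog genes: 1.98% higher and 2.53% lower in total RNA, 13.9% and 13.9% in the untranslated, 4.15% and 5.45% in the low and 2.95% and 2.44% in the high pool. In the gradient of control cells these shares were 39.1% and 38.5%, and in the shift 9.69% and 9.70%. Of 22 HSF1 targets 10 were measured, and in total RNA limma called 0 of 10 (3 higher and 0 lower at an unadjusted p under 0.05), at a median of 0.19. In the untranslated, low and high pools 2 of 9, 2 of 10 and 1 of 10 were higher upon OS and none of the measured targets lower by limma (1, 0 and 0 lower at an unadjusted p under 0.05). In control cells 6 of 9 lay in the high and 3 in the untranslated pool, with a median of 2.22, and 1 moved each way in the shift. HSP90AA1 and HSP90AB1, the inducible and the constant form of cytosolic HSP90, lay at 3.13 and 2.74 in control cells. HSP90AB1 rose by 1.43 in the untranslated and by 1.24 in the low pool and shifted by -1.34, with 0.20 in total RNA, and HSP90AA1 rose by 0.50 and 0.68, with -0.12 in total RNA. With 75th percentile scaling the low pool values of HSP90AB1 and HSP90AA1 turned to -0.04 and -0.71, and without replicate 3 of the OS low pool they were 0.79 and 0.27. With that scaling on all arrays the untranslated values of HSP90AB1 (1.55, adjusted p = 0.0946) and HSP90AA1 (0.65, adjusted p = 0.904) and the shift of HSP90AB1 (-1.57, adjusted p = 0.696) missed too.

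HSP90 and its cochaperones had 14 of 20 listed genes on the array. In the untranslated pool 6 of 13 were higher upon OS, in the low pool 5 of 14 higher and 1 lower, and in the high pool 1 of 14 higher, while in total RNA limma called 0 (0 at an unadjusted p under 0.05). In control cells 10 of 13 lay in the high pool and 3 in the untranslated pool, and 2 moved toward and 4 away from heavy polysomes upon OS. Among the listed genes AHSA2 rose by 1.51 in the high pool and ST13, which joins HSP70 to HSP90, shifted by -1.35.

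The ER chaperones had 12 of 21 listed genes on the array. In the untranslated pool 8 of 12 were higher upon OS, with a median of 0.87, beside 13.9% of all catalog genes. They were the members DNAJB11, HSPA13 and PPIB with CALR and CANX, the lectins that hold glycoproteins (1.04 and 0.86), the disulfide isomerases PDIA3 (1.53) and PDIA4 (1.31) and CRELD2 (0.88). In the low pool 4 of 12 and in the high pool 1 of 12 were higher, and in total RNA 1 of 11, HERPUD1, a gene of ER-associated degradation, which rose by 0.58 there and by 0.95 in the high pool. In control cells 10 of 12 lay in the high pool and limma called 0 in the untranslated pool (0 at an unadjusted p under 0.05), and in the shift 1 moved toward and 2 away from heavy polysomes. At an unadjusted p under 0.05 the shift had 1 toward and 8 away, beside 1279 and 1077 of 6307 catalog genes. The median shift of the list was -0.58, beside 0.06 over all catalog genes.

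Mitochondrial chaperones had 10 of 17 listed genes on the array, with the proteases CLPP and LONP1 among them. In total RNA 1 of 10 was higher upon OS, GRPEL2, an exchange factor for HSPA9, which rose by 0.58. In the untranslated pool 3 were higher and 1 lower. Among the higher were TRAP1, the mitochondrial HSP90, which rose by 0.95, and the protease LONP1, which rose by 0.54. In the low and the high pool 2 were higher each. Their median place in control cells was 0.09, with 4 in the high and 2 in the untranslated pool, and 2 moved toward and 1 away from heavy polysomes. Other chaperones, such as tubulin folding factors, had 10 of 16 listed genes on the array. Of 9 measured, 3 were higher and 2 lower in the untranslated pool, 2 higher in the low pool, and limma called 0 in total RNA (0 unadjusted) and 0 in the high pool (2 higher unadjusted). The 2 lower ones were the tubulin folding factor TBCC (-0.76) and CHAC1 (-0.77), a listed gene that is not a chaperone. In control cells 5 lay in the high and 3 in the untranslated pool, and 2 moved each way.

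The comparisons of OS with control share arrays with one another, so the values of a member are given side by side. HSPA9 differed by 0.16 in total RNA, 1.00 in the untranslated, 0.79 in the low and 0.78 in the high pool. For BAG3 the differences were 0.53, 0.45, 0.52 and 0.38, for HSPB8 0.73, -0.28, 0.57 and 0.62, and for DNAJB2 0.43, 0.21, 0.32 and 0.47. CCT4 differed by 0.05, 0.98, 0.65 and -0.14, and DNAJB14 by -0.29, -0.76, -0.69 and -0.19. HSF1 differed by -0.15, -0.12, 0.10 and -0.22, none of which passed. Over the alternatives and omissions the low pool value turned negative for BAG3 (lowest -0.68) and for HSF1 (lowest -1.22).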

How the data were processed

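Total RNA and 3 gradient pools of MRC5 cells were hybridized to 24 single-color arrays. The authors read each spot with Feature Extraction 10.7.3.1 and deposited its intensity with background subtracted, not normalized between arrays. A further table deposited by the authors holds log2 values, and each of its 24 columns equalled, to a median difference of 0.00, the intensities of its array after quantile normalization over all probes. The alternative with all probes normalized together was computed from the intensities. Here log2 of the processed intensity was quantile normalized separately for 17535 catalog and 44002 lncRNA probes, after control spots were left out. The separation of the categories follows the study's methods, which also name normexp and the removal of replicates that did not cluster. Here normexp and the fit without replicate 3 of the OS low pool were alternatives, and the fit described kept every array. Of the probes, 178 with an outlier mark were left out of the counts, none of them of a member. Saturated spots were kept, and 0 member probes were saturated. All 24 arrays entered a single limma 3.58.1 fit with 8 groups (16 residual degrees of freedom), with eBayes moderation and Benjamini-Hochberg adjustment within each of 6 comparisons over the probes that some group compared had well above background on all its arrays. R 4.3.3, data.table (version 1.17.8), Python 3.11.15, numpy 2.4.6, pandas 2.3.3 and matplotlib 3.10.9 were used, and the fit was tested on simulated data first.

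Genes were named by rule: 20 core genes of the heat shock response, of which 9 are on the array, the 5 most positive and 5 most negative called members in total RNA, in the gradient of control cells and in the shift, and members called on 1 side. Other genes named were chosen after their values were seen. The members and the lists (HSF1 targets, HSP90 and cochaperones, ER, mitochondrial and other chaperones, and markers of fibroblast, epithelial, leukocyte and endothelial cells) were chosen with earlier results of these data known. Alternatives were quantile normalization over all probes, 75th percentile scaling, normexp with an offset of 50, genes measured on at least 1 side, the mean of a gene's probes, replicate or slide as a block, ordinary variances, control untranslated replicates 1 and 2 averaged, each array left out, and the low in place of the high pool. The number of arrays, 3 in a group, limits the precision.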

Additional observations from a re-analysis of the deposited data

Results flagged for a closer look

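The effect of OS differed between the high and the untranslated pool, by the test of that difference itself, in 9 genes. Those with a larger value in the high pool were PPIH (1.14), DNAJB4 (0.93), HSPE1 (0.83), PPIA (0.68) and DNAJB14 (0.57). A smaller value in the high pool was found for DNAJC1 (-1.19), CCT4 (-1.13), CCT8 (-0.83) and DNAJA2 (-0.81). These 9 genes were not equally stable. Of 9 alternatives, 1 of them chosen after seeing the data, DNAJB14 and DNAJA2 passed in 2 each, PPIA in 5, PPIH and CCT8 in 6, HSPE1 and DNAJB4 in 7 and DNAJC1 and CCT4 in 8. DNAJB14 had a negative estimate in both pools, and DNAJB4, PPIH, HSPE1 and PPIA had estimates of opposite sign in the pools, as did the 4 genes with a smaller value.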

How the results depend on the processing

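The number of called members moved by over 1.5 times under these settings, and the cause was not tested. All probes normalized together gave 1 member higher in total RNA, 5 in the untranslated pool of control cells and 3 shifted toward the high pool. With 75th percentile scaling limma called 0 higher in total RNA (0 unadjusted), 0 and 0 in the untranslated pool (3 and 0), 0 higher in the low (0) and in the high pool (1), 0 and 0 in the shift (0 and 0), and 1 toward the untranslated pool of control cells. That scaling without replicate 3 of the OS low pool, chosen after seeing the data, gave 0 higher (0 unadjusted) and 1 lower in total RNA, 2 lower in the untranslated pool, 1 higher in the low and 1 in the high pool, 3 toward the untranslated pool of control cells, and in the shift 0 toward (3 unadjusted) and 2 away. Normexp gave 1 lower in total RNA and 5 lower in the low pool, the mean of a gene's probes 1 higher in total RNA and 3 toward, slide as a block 1 lower in the low pool, ordinary variances 2 lower in total RNA and 1 in the high pool, and control untranslated replicates 1 and 2 averaged 3 lower in that pool and 3 toward. With the low in place of the high pool 0 shifted toward and 0 away (3 and 6 unadjusted). Counting genes measured on at least 1 side moved no count by over 1.5 times.

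Direction reversed for HSPE1 in the gradient of control cells (0.11 with all probes together and with normexp, 0.17 with 75th percentile scaling, also without replicate 3 of the OS low pool) and for PPIA there (-0.07 with 75th percentile scaling, with and without that array, and -0.03 with the mean of its probes). BAG1 (0.57), FKBP4 (0.92) and PPIH (0.34) reversed there with 75th percentile scaling, with and without that array, and FKBP4 with the mean of its probes (0.61). In the low pool CCT4 (-0.63), CCT8 (-0.54), DNAJC1 (-0.60), HSPA9 (-0.23), HSP90AA1 (-0.71) and HSP90AB1 (-0.04) reversed with 75th percentile scaling, but not without replicate 3 of the OS low pool (0.32, 0.47, 0.26, 0.76, 0.27 and 0.79). Only called results are listed here, and low pool values that had not passed turned too. Among them, the lowest over the alternatives and omissions were -0.68 for BAG3, -1.22 for HSF1, -1.13 for HSPE1 and -1.03 for DNAJA1.

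Replicate numbers were not found to pair the samples: over 6799 probes the deviations of OS and control arrays of the same number correlated at -0.35 to 0.46. With the replicate block 1 member was lower in total RNA, HSPB8 (adjusted p = 0.058) and DNAJA2 in the shift (0.0578) missed the threshold and BAG3 in total RNA passed (0.0444).

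Leaving out 1 array at a time gave 0 to 4 members higher and 0 to 2 lower in total RNA, 5 to 12 and 2 to 7 in the untranslated, 2 to 9 and 1 to 6 in the low and 1 to 5 and 0 to 0 in the high pool, 27 to 29 and 10 to 11 in the gradient of control cells, and 3 to 8 toward and 2 to 7 away in the shift. Without replicate 3 of the OS low pool there were 4 higher and 2 lower in total RNA, 5 higher in the high pool and 8 toward and 7 away. In total RNA 0 were higher without control total 2 or 3 or OS total 1 or 3, and 1 without control total 1, OS total 2, control untranslated 1, OS untranslated 3, control low 1, 2 or 3, control high 2 or OS high 3. In the untranslated pool 5 were higher without control untranslated 2 or OS untranslated 3, and 2 and 3 lower without control untranslated 1 and 2. In the low pool 2 were higher without control low 3 and 9 without OS low 2, and lower were 5 without OS low 1, 6 without OS low 2 and 1 without any array of total RNA, of the control low or of the control high pool, OS untranslated 2 or OS high 3. In the high pool 1 was higher without control high 1 or 2 or OS high 2. In the shift 3 moved toward without control untranslated 1 or 2, OS untranslated 2 or 3, control high 1 or 2 or OS high 2 or 3, and 2 away without control untranslated 2, OS untranslated 3 or control high 1.

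Single calls also rested on arrays. HSPB8 in total RNA passed in 11 of the 24 omissions and missed at an adjusted p of 0.054 to 0.171 in the others, which are any array of total RNA, control untranslated 1, OS untranslated 3, any control low, control high 2 and OS high 3. DNAJB2 missed there (0.0557 to 0.084) without any of the total RNA arrays but control 1. In the high pool HSPA9 missed without control 3 (0.0578) or OS 1 (0.0583), and HSPE1 without control 1 or 2 or OS 2 or 3 (0.105 to 0.136). In the gradient of control cells HSPE1 missed without control untranslated 1 (0.0566), control high 1 (0.0508) or 2 (0.057), and HSPA6 (0.0507) and DNAJC16 (0.0844) without control untranslated 2. The shifts of DNAJB14 and DNAJA2 passed in 5 of 24 omissions each. PPIA missed (0.0614 to 0.0944) without control untranslated 1 or 2, OS untranslated 2 or 3, control high 1 or 2 or OS high 2 or 3, and CCT8 (0.0573 to 0.0748) without control untranslated 2, OS untranslated 3, control high 1 or OS high 2. PPIH, DNAJB4, HSPE1, DNAJC1 and CCT4 passed the test of the shift in all 24. Signal over background limits the dim members, such as HSPA6 in the untranslated pool, to bounds or to no value.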
